A study of Mus musculus with 6 samples.

Results

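The histone genes of the H1, H2A, H2B, H3 and H4 classes were examined in the macrophage line RAW264.7 after knockdown of Trem2. They were chosen by symbol, as every gene whose name begins with H1f, H2ac, H2bc, H3c or H4c, with names ending in -ps (pseudogenes) left out. This gave 73 of the 56092 gene symbols in the count table, of which 11 belonged to H1, 18 to H2A, 19 to H2B, 12 to H3 and 13 to H4. All 73 were protein coding in the annotation deposited with the data, whereas GENCODE M21 lists the only transcript of H2bc26, a gene at 0 in every library, as a processed pseudogene.

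RAW264.7 is a mouse line of macrophage type. Both groups were stable lentiviral lines selected with puromycin and marked by GFP, one carrying the control (shNC, an empty vector in the labels and a control hairpin in the study's methods, 3 libraries) and the other an shRNA against Trem2 (shTrem2, 3 libraries). Treatment was the same in both, a day (24 hours) of IL-4 at 20 ng/mL followed by 24 hours with debris of the tubular epithelial line TCMK-1, so no group was without IL-4 or debris. The labels do not say which shRNA was used, how many transduced lines a group held, or whether the replicates were separate cultures. Any other difference between the transduced cells cannot be told apart from the knockdown. The p-values therefore measure only the spread between these libraries.

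Histones package DNA into nucleosomes. A nucleosome core holds H2A, H2B, H3 and H4, and H1 binds the linker DNA between cores. Most genes of these classes lie in clusters, are switched on when DNA is replicated, and give short messages without introns. Such messages end in a stem-loop instead of a poly(A) tail, and the stem-loop is bound by SLBP, which directs their processing, translation and decay. Replication-independent members such as H1f0 give ordinary polyadenylated messages. The libraries were made from poly(A)-selected RNA, so a histone message was counted mainly as far as it carried a tail. The amount of a histone RNA and its polyadenylated share cannot be told apart here. Neither can a change in the share of cycling cells and a change in RNA per cell.

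The stem-loop was searched for in the GENCODE M21 transcripts (build GRCm38) as the histone stem-loop consensus on the transcript strand. Of 21901 protein-coding genes, 107 (0.49%) held a match. Among the 73 members, 19 had annotated transcripts that ended within 50 nt of the match, 25 had a transcript that ran further past it, and 29 had no match in any annotated transcript. Several of the last group had short annotated transcripts, such as H2ac10 at 399 nt, H2bc13 at 381 nt and H4c12 at 312 nt. A transcript annotated without the end of its message could not hold a match, and this was not examined. The following sequences are shown for 6 tested members from all 5 classes, so that the letters and the length beyond them can be compared. Capitals mark the stem-loop and lower case the 5 bases on either side.
H1f2, chr13:23739507-23739532 (+): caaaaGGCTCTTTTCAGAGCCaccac
H2ac7, chr13:23574890-23574915 (+): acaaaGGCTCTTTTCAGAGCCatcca
H2bc8, chr13:23571838-23571863 (+): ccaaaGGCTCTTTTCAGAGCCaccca
H3c4, chr13:23576239-23576264 (+): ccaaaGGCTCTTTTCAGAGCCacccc
H3c14, chr3:96247322-96247347 (+): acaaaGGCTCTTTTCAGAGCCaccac
H4c9, chr13:22040961-22040986 (-): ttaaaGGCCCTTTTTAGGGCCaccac
The first 5 of these genes carried the same stem-loop letters, and H4c9 carried other letters in the stem and in the loop. The annotated transcript ran 840 nt past the stem-loop in H1f2, 155 nt in H2bc8, 752 nt in H3c4 and 330 nt in H4c9, against 42 nt in H2ac7. H1f0, H2bc4, H2bc21 and H2ac10 had no match in their annotated transcripts.

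Members also differed in their promoters. RefSeq promoter sequences (GRCm38.p6, 250 bases before to 50 after the start) were given for 62 of the 73 members, as 63 windows. Motifs were counted on both strands. TATAAA was present in 54.0% of the member windows against 13.6% of 32851 promoters, and CCAAT in 82.5% against 37.4%. The E2F motif TTTNGCGC was present in 20.6% against 1.4%, and the octamer ATTTGCAT also in 20.6%, against 1.7%. By class the octamer was in 35.3% of H2A and 46.7% of H2B windows and in none of the H1, H3 or H4 windows. The E2F motif was in 41.2% of H2A and 40.0% of H2B windows and also in none of the others. The windows overlap in 9 pairs of H2A and H2B genes that start close together in opposite directions. The same bases can therefore count in both classes. A match describes letters and is not evidence of a bound factor. The 120 bases before the start are shown for H2bc8 and H3c4, which rose, and for the 2 most abundant members. Capitals mark the searched motifs, in either orientation.
H2bc8, chr13:23571280-23571399 (+): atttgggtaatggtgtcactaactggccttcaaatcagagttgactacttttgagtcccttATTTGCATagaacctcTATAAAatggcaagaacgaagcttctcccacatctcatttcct
H3c4, chr13:23575643-23575762 (+): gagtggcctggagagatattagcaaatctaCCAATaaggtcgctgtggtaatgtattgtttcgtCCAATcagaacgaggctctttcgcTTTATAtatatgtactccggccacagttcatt
H1f2, chr13:23738687-23738806 (+): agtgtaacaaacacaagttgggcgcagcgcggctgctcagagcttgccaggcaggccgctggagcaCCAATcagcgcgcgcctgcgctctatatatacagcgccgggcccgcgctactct
H1f0, chr15:79028092-79028211 (+): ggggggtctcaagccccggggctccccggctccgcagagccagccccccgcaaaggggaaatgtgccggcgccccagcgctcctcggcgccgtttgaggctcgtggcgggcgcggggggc
In these stretches H2bc8 showed the octamer followed by TATAAA, H3c4 showed CCAAT in 2 places and TATAAA on the opposite strand, H1f2 showed CCAAT alone, and H1f0 showed none of the 4 motifs.

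Named gene counts ranged from 15876119 to 19655165 per library, and a count of 0 then allows up to 3 counts, or 0.153 to 0.189 CPM (counts scaled to library size). This limit covers counting error only. The targeted gene, Trem2, was lower in all 3 shTrem2 libraries, with counts of 1835, 2204 and 2615 in shNC and 1241, 1209 and 1557 in shTrem2, a log2 fold change of -0.87 (SE 0.0939, edgeR adjusted p = 3.39e-06), which was -2.06 when the authors' FPKM values were fitted as log2(FPKM + 1). Of the 10 macrophage markers, 9 passed the low-count filter, and Mertk had at most 3 counts in a library. All 9 of these passed the test, 7 higher and 2 lower in shTrem2, where 57.4% of all genes tested passed. Of the 16 tubular epithelial markers 10 were at 0 in every library, and their summed counts were 16 to 23 in shNC and 43 to 54 in shTrem2, of which Aqp1 held 5 to 12 and 38 to 50. Their part in the results was not tested.

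Histone messages were a small part of these libraries. The 73 members together held 0.0485% to 0.0556% of named counts in shNC and 0.0614% to 0.079% in shTrem2. This difference lay in 1 gene. H1f0, the linker histone of resting and differentiated cells, held 84.8% to 86.5% of the member counts in shNC and 89.0% to 90.3% in shTrem2. The summed CPM of the other 72 members was 73.5 ± 1.149 against 72.3 ± 8.21 (SD, n = 3 each), with overlap between shNC and shTrem2.

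On the authors' FPKM scale, which is per transcript length, H1f0 had a mean level of 303 over the 6 libraries and stood 14.4 times above the next member, H1f2, at 21.04. H2ac19 followed at 9.93, H2ac10 at 7.05, H2bc4 at 7.04 and H2bc21 at 6.28, and their ranges over libraries overlapped, so this order is not a ranking. In all, 22 members had a mean FPKM over 1 and 6 a mean over 5. Low FPKM values of short transcripts rested on very few reads. H4c12, for example, had a mean FPKM of 1.38 from at most 2 counts in any library.

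**Figure D1:**
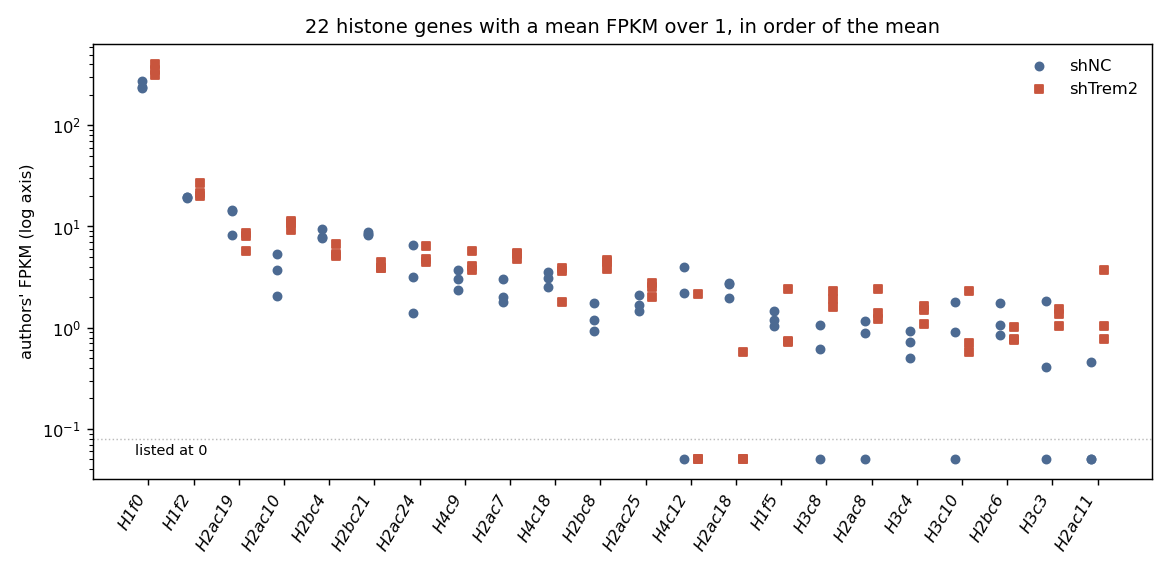
The authors' FPKM values (log axis) of the 22 histone genes with a mean over 1, one point per library, shNC as circles and shTrem2 as squares, with values of 0 drawn at the foot. H1f0 lies above 235 in every library and all other members lie below 27.

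The comparison of shTrem2 with shNC asks which histone messages differed in level after the knockdown. Of the 73 members, 16 passed the low-count filter and 57 did not. With edgeR's quasi-likelihood test and Benjamini-Hochberg adjustment over all 13528 genes tested, 10 of the 16 passed an FDR of 0.05, 7 higher and 3 lower in shTrem2, and 6 did not. Over all genes 57.4% passed at the same threshold, 28.8% higher and 28.6% lower, so a share of 62.5% among the members was near that of all genes. With a fold change over 1.5 as well, 4 members were higher and 2 lower, beside 9.46% and 12.4% of all genes tested. Leaving out a library let 21 to 23 members past the filter, and the number lower was then 5 without shTrem2 replicate 3, while the number higher by over 1.5-fold was 7 without shNC replicate 3 or shTrem2 replicate 3, and the number lower by over 1.5-fold was 4 without shTrem2 replicate 2 or 3. The groups did not overlap for 9 of the 16 members and for 63.8% of all genes tested.

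The median log2 fold change of the 16 was 0.50, beside -0.00 for all genes tested. This median depends on the filter. Of the 16, 5 had under 10 counts in some library, and 4 of those 5 were among the members that rose. H2ac10 and H2bc8 had under 10 counts in every shNC library and so passed the filter through shTrem2 alone. H2ac7, H2ac24 and H3c4 also had too few counts in shNC to pass without their shTrem2 libraries. The 4 members higher by over 1.5-fold were all among these 5. Over the other 11 members the median was -0.17.

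**Figure D2:**
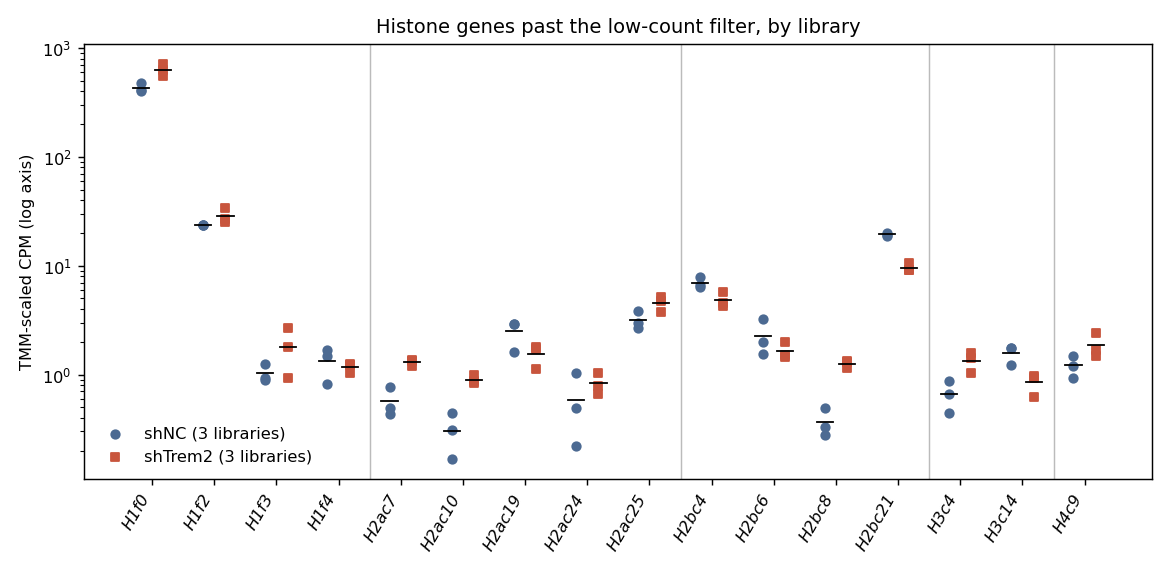
TMM-scaled CPM (log axis) of the 16 tested histone genes in each library, with a line at each group mean and vertical lines between classes. H1f0 lies far above the rest, and H2bc21 is the member whose groups stand furthest apart among those with more than 100 counts a library.

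In the H1 class 11 genes were measured and 4 were tested, of which H1f0 and H1f2 rose and H1f3 and H1f4 did not pass. H1f0 had counts of 6652, 7315 and 8697 in shNC and of 11957, 13720 and 10733 in shTrem2. Every shTrem2 library was above every shNC library, and the authors' FPKM was 250.1 ± 21.7 (SD, n = 3) against 357 ± 45.8 (SD, n = 3). The fold was 1.46 (log2 fold change 0.55, SE 0.083, edgeR adjusted p = 7.79e-05), and the gene passed the test under all 16 alternatives, with log2 fold changes between 0.45 and 0.62. No annotated 100-base stretch of H1f0 is shared with another gene.

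H1f2 is one of the replication-dependent linker histones, and its message also occurs with a tail. It had counts of 385, 430 and 434 in shNC and of 484, 647 and 524 in shTrem2. The shNC libraries were close together, the second shTrem2 library was the highest, and the first shTrem2 library was only just above them on the CPM scale. The fold was 1.20 (log2 fold change 0.26, SE 0.0982, edgeR adjusted p = 0.0335). The call was lost under 8 of 16 alternatives, among them without shNC replicate 1, 2 or 3 (edgeR adjusted p = 0.0814, 0.0928 and 0.0716) and without shTrem2 replicate 2 (edgeR adjusted p = 0.173, log2 fold change 0.13).

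H1f3 had counts of 15, 16 and 23 in shNC and of 18, 51 and 35 in shTrem2. Its groups overlapped through the first shTrem2 library (log2 fold change 0.80, SE 0.38, edgeR adjusted p = 0.0869), and without that library the adjusted p was 0.0177. H1f4 had 15 to 27 counts in shNC and 20 to 24 in shTrem2, a log2 fold change of -0.17 (SE 0.333, edgeR adjusted p = 0.685). Of the 7 H1 genes under the filter, H1f5 reached 20 counts and H1f10 15. H1f10, which like H1f0 is expressed outside S phase, had 1, 3 and 4 counts in shNC and 15, 14 and 10 in shTrem2, with no overlap between groups but too few counts for the test. H1f7 and H1f9, both known from male germ cells, were at 0 in every library.

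In the H2A class 5 of 18 genes were tested, and H2ac7, H2ac10 and H2ac25 rose while H2ac19 and H2ac24 did not pass. H2ac19 had the highest FPKM of the class, with 8.24, 14.62 and 14.25 in shNC and 8.13, 8.59 and 5.75 in shTrem2. The first shNC library lay within the range of shTrem2. Its counts of 26, 53 and 53 against 33, 34 and 22 gave a log2 fold change of -0.70 (SE 0.299, edgeR adjusted p = 0.0613), and without shNC replicate 1 the value was -0.93 (adjusted p = 0.0171).

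H2ac19 shares every 100-base stretch of its annotated transcript with H2ac18 and with the transcript Gm20634, so the division of reads between them is uncertain. H2ac18, which was under the filter, had 11, 13 and 9 counts in shNC and 0, 0 and 3 in shTrem2. The summed CPM of H2ac18 and H2ac19 was 2.30, 3.66 and 3.41 in shNC and 1.72, 1.77 and 1.29 in shTrem2, lower in all 3 libraries.

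H2ac10 rose from counts of 5, 3 and 8 to 16, 19 and 17. All shTrem2 libraries were above all shNC libraries, and its FPKM went from 3.69 ± 1.64 (SD, n = 3) to 10.4 ± 1.10 (SD, n = 3). The log2 fold change was 1.54 (SE 0.435, edgeR adjusted p = 0.00794) in a gene that passed the filter through shTrem2 alone, and the call was lost without shNC replicate 2 (log2 fold change 1.23, adjusted p = 0.0509). Of its 100-base stretches 65.3% are shared with H2ac7.

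H2ac7 had 7, 14 and 9 counts in shNC and 26, 23 and 26 in shTrem2, again without overlap. Its shNC counts alone would not have passed the filter. Its FPKM was 2.29 ± 0.668 against 5.18 ± 0.381 (SD, n = 3 each). The log2 fold change was 1.17 (SE 0.352, edgeR adjusted p = 0.0112), and the call was lost without shNC replicate 1 (log2 fold change 1.01, adjusted p = 0.0568). H2ac7 shares 55.2% of its 100-base stretches with H2ac12, which had at most 2 counts.

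H2ac25, an H2A gene on chromosome 11, had counts of 43, 54 and 70 in shNC and of 90, 98 and 73 in shTrem2. On the CPM scale the third libraries of the groups overlapped. The log2 fold change was 0.51 (SE 0.205, edgeR adjusted p = 0.0485) and passed under only 5 of 16 alternatives. The call was lost without shNC replicate 1 or 2 (adjusted p = 0.162 and 0.130) and without shTrem2 replicate 1 or 2 (adjusted p = 0.116 and 0.151, all edgeR). H2ac25 shares 29.8% of its stretches with the neighbouring gene Trim17.

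H2ac24 had 8, 4 and 19 counts against 15, 20 and 13, with overlap (log2 fold change 0.49, SE 0.481, edgeR adjusted p = 0.408). Among the 13 H2A genes under the filter, H2ac8 had 0, 6 and 8 counts against 11, 9 and 18 and H2ac11 had 1, 0 and 0 against 3, 3 and 11, both without overlap and without a test. H2ac1, H2ac13, H2ac21 and H2ac23 were at 0 in every library. H2ac1 is a testis form.

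In the H2B class 4 of 19 genes were tested. H2bc4 and H2bc21 fell, H2bc8 rose and H2bc6 did not pass. H2bc21 encodes H2BE, an H2B form known from olfactory neurons. Its counts were 309, 363 and 344 in shNC and 176, 201 and 176 in shTrem2. The replicates of each group were close together and the groups lay well apart, at FPKM of 8.47 ± 0.306 and 4.09 ± 0.341 (SD, n = 3 each). The level fell by 2.03-fold (log2 fold change -1.02, SE 0.1, edgeR adjusted p = 1.41e-06), and the gene passed under all 16 alternatives, between -1.09 and -0.90. No 100-base stretch of H2bc21 is shared with another gene.

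H2bc4 had counts of 126, 116 and 120 in shNC and of 88, 109 and 83 in shTrem2. The groups did not overlap on the CPM scale, and the second shTrem2 library was nearest to shNC. The log2 fold change was -0.52 (SE 0.163, edgeR adjusted p = 0.0151), and the call was lost without shNC replicate 1 (adjusted p = 0.0640) or shTrem2 replicate 1 (adjusted p = 0.0552).

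H2bc8 had 8, 5 and 6 counts in shNC and 22, 25 and 26 in shTrem2, and passed the filter through shTrem2 alone. The 3 shTrem2 libraries were alike and all were above shNC, and the FPKM was 1.29 ± 0.428 against 4.30 ± 0.451 (SD, n = 3 each). The fold was 3.43 (log2 fold change 1.78, SE 0.38, edgeR adjusted p = 0.00122). Requiring 10 counts in every library left the gene untested. H2bc8 shares 39.7% of its 100-base stretches with H2bc4, which moved the other way.

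H2bc8 and H2ac8 start 180 bases apart in opposite directions, one of 9 such H2A and H2B pairs among the members. Both had higher counts in every shTrem2 library. In the pair of H2ac7 and H2bc7, with starts 174 bases apart, H2ac7 rose while H2bc7 had at most 2 counts in a library.

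H2bc6 had 32, 28 and 59 counts against 29, 38 and 28, with overlap (log2 fold change -0.46, SE 0.307, edgeR adjusted p = 0.219). Among the 15 H2B genes under the filter, H2bc9 had 5, 5 and 4 counts against 7, 11 and 16. H2bc23 had 26, 0 and 20 counts in shNC and 0, 3 and 0 in shTrem2, while H2bc24 had 7, 28 and 6 against 7, 5 and 22. In shNC these genes swung in opposite directions and the sum of the pair was 33, 28 and 26. In shTrem2 the sum was 7, 8 and 22 and followed H2bc24, so the value of either gene alone is uncertain. H2bc1, a testis form, and H2bc26 were at 0 throughout.

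**Figure D3:**
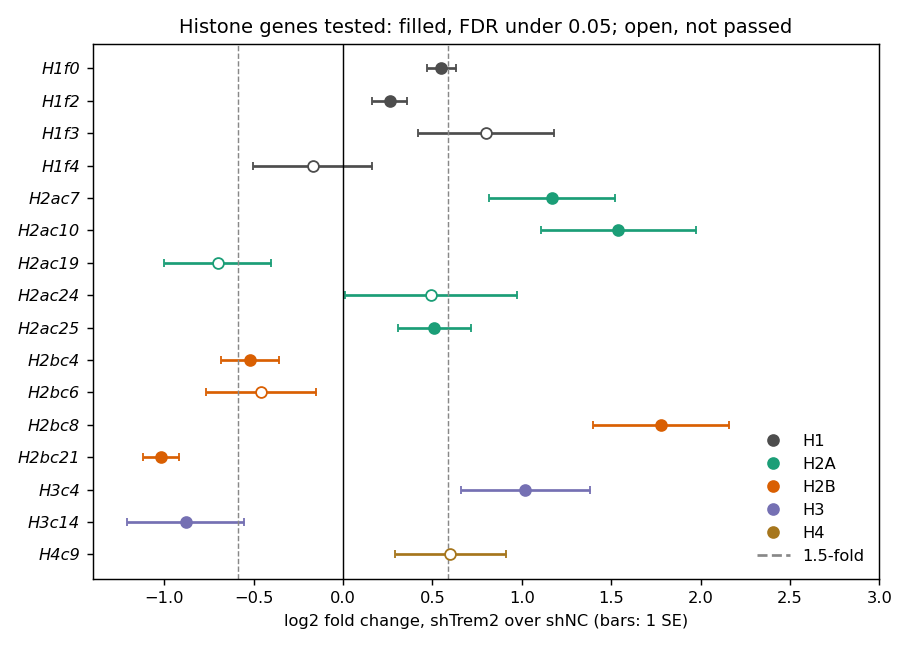
Log2 fold change of shTrem2 over shNC with 1 SE for the 16 tested histone genes, coloured by class, filled where the FDR is under 0.05, with dashed lines at a fold of 1.5. H2bc8 (1.78) and H2ac10 (1.54) lie furthest to the right and H2bc21 (-1.02) furthest to the left.

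In the H3 class 2 of 12 genes were tested, and they moved in opposite directions. H3c4 had 14, 12 and 8 counts in shNC and 30, 27 and 20 in shTrem2, without overlap. Its shNC counts alone would not have passed the filter. Its log2 fold change was 1.02 (SE 0.362, edgeR adjusted p = 0.0265) and passed in 10 of 15 alternatives. It was lost without shNC replicate 2 or 3 (adjusted p = 0.0729 and 0.108), without shTrem2 replicate 1 or 2 (adjusted p = 0.0997 and 0.0687) and with DESeq2 (adjusted p = 0.0612).

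H3c14 had 28, 22 and 32 counts in shNC and 12, 18 and 19 in shTrem2. All shTrem2 libraries were lower, with a log2 fold change of -0.88 (SE 0.326, edgeR adjusted p = 0.0324). The call held in 10 of 16 alternatives and was lost without shNC replicate 1 or 3 (adjusted p = 0.101 each) and without shTrem2 replicate 1 or 2 (adjusted p = 0.131 and 0.0552). The counts of this gene came as 2 transcripts, and in 5 of the 6 libraries one of them held all of its counts, in some libraries the first and in others the second. The sum over both is used here. Every 100-base stretch of H3c14 also occurs in the transcript Gm20634, and 32.9% occur in H3c15, so its reads cannot be assigned to 1 gene with certainty. With H3c15 added, the summed CPM of the groups overlapped, at 1.86, 1.39 and 1.76 against 0.625, 1.41 and 0.978.

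Among the 10 H3 genes under the filter 8 had a higher mean CPM in shTrem2. H3c6 had 2, 3 and 2 counts against 12, 10 and 15 and H3c7 had 1, 0 and 1 against 6, 4 and 17, both without overlap. H3c3 had 0, 10 and 2 counts against 8, 9 and 6, with overlap. In the H4 class 1 of 13 genes was tested. H4c9 had 15, 27 and 22 counts in shNC and 46, 32 and 29 in shTrem2, with overlap on the CPM scale (log2 fold change 0.60, SE 0.312, edgeR adjusted p = 0.115). Of the other H4 genes H4c4, H4c11 and H4c14 reached 10 counts in a library, all with overlapping groups.

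Over the 57 members under the filter, 9 were at 0 in every library, 16 reached 1 to 3 counts, 18 reached 4 to 9 and 14 reached 10 or more, with 28 the highest. The mean CPM was higher in shTrem2 for 33 of them and lower for 15. The groups did not overlap for 9 that were higher and 2 that were lower. Of the 57, 48 had any count, and over the 10330 genes under the filter with any count 4.58% were higher and 6.70% lower without overlap. Of the 14 members that reached 10 counts, 6 were higher and 1 was lower without overlap, beside 13.6% and 13.4% of the 1178 such genes. The summed CPM of the 57 was 8.01, 7.54 and 7.64 in shNC and 9.02, 10.4 and 11.1 in shTrem2.

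Since reads of near-identical members can be divided differently from library to library, each class was also summed over all its members. The H1 sum was 440.1, 433 and 505 CPM in shNC and 652, 756 and 584 CPM in shTrem2, higher in all 3, and H1f0 held 94.6% of it. Without H1f0 and H1f10 the H1 sum was 27.1 ± 0.18 against 32.8 ± 5.70 CPM (SD, n = 3 each).

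The H2A sum was 8.61 ± 1.503 CPM in shNC and 10.7 ± 0.466 CPM in shTrem2, and the groups did not overlap. Without H2ac25, which held 40.0% of the H2A counts, the sums were 5.44 ± 0.962 and 6.16 ± 0.237 CPM, with overlap. The H2B sum was lower in all 3 shTrem2 libraries, at 31.4 ± 0.835 against 19.2 ± 1.84 CPM. H2bc21 held 57.0% of the H2B counts, and without it the sums were 11.96 ± 1.31 and 9.66 ± 1.07 CPM, with overlap (SD, n = 3 each throughout).

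The H3 sum was higher in all 3 shTrem2 libraries, at 3.22 ± 0.255 against 4.97 ± 0.424 CPM. Without H3c14 the ratio was larger, at 1.65 ± 0.401 against 4.12 ± 0.241 CPM. The H4 sums overlapped, at 3.02 ± 0.512 and 3.90 ± 0.552 CPM, as they did without H4c9 (SD, n = 3 each). The sums are given without a test, and an exact permutation test of 3 against 3 libraries could not go below p = 0.1.

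**Figure D4:**
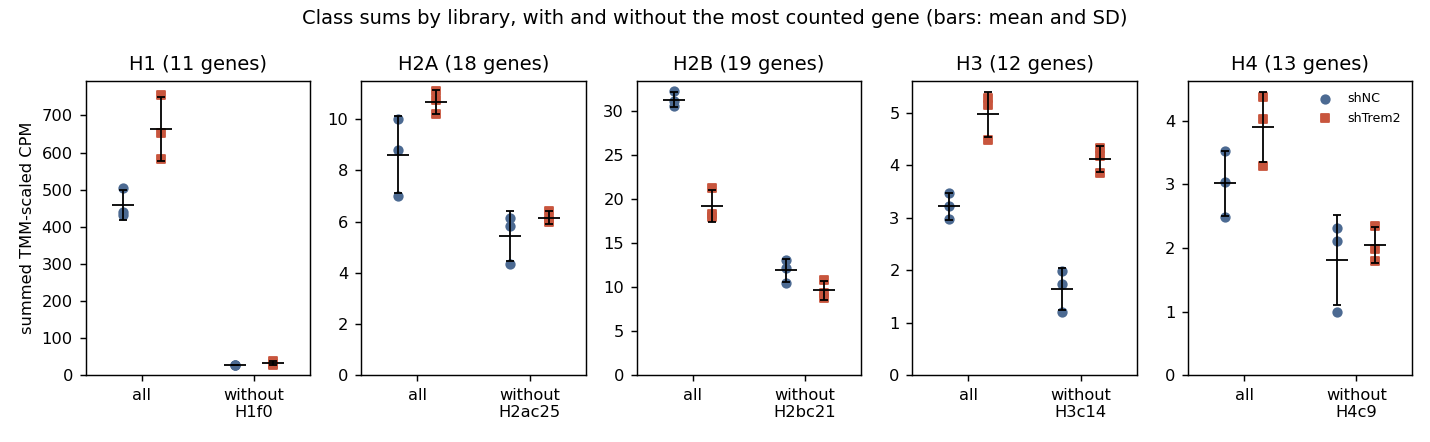
Summed TMM-scaled CPM of each histone class per library, for all its genes and without the most counted gene, with mean and SD (n = 3); the vertical axes differ. The H2A and H2B groups stand apart only with H2ac25 or H2bc21 included, the H1 and H3 groups with or without H1f0 or H3c14, and the H4 groups in neither case.

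The members lie on chromosomes 13 (54 genes), 3 (10), 11 (4), 6 (3) and 15 (2). On chromosome 3, 3 genes were tested and all 3 had a negative log2 fold change, with H2bc21 and H3c14 lower at an FDR of 0.05 and H2ac19 not passing. H2ac19 and H3c14 each share every 100-base stretch with the same transcript, Gm20634, so the division of their reads is uncertain. With H3c15 added, the groups of H3c14 overlapped. On chromosome 13, 8 of 11 tested genes had a positive value, 5 rose and H2bc4 fell. Of these, H2ac7, H2ac10, H2ac24, H2bc8 and H3c4 passed the filter only with their shTrem2 libraries. A positive value was thus favoured in advance for them. Over all genes tested 28.8% were higher and 28.6% lower. The chromosome 3 sum was 24.7 ± 0.772 CPM in shNC and 13.1 ± 1.30 CPM in shTrem2, and without H2bc21 it was 5.27 ± 0.449 against 3.55 ± 0.531 CPM. The chromosome 13 sum was 45.3 ± 1.44 against 53.6 ± 6.36 CPM (SD, n = 3 each). Neither pair of groups overlapped. The difference between chromosomes was noticed in the data and was not tested.

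By the annotated end of the message, the 25 members whose transcript runs past the stem-loop summed to 38.0 ± 1.39 CPM in shNC and 47.9 ± 6.07 in shTrem2, without overlap, and to 14.1 ± 1.389 and 19.3 ± 1.57 CPM without H1f2. The 19 whose transcript ends at the stem-loop summed to 5.39 ± 0.720 and 5.35 ± 0.414 CPM, with overlap (SD, n = 3 each). The 29 without a match summed to 462 ± 39.2 and 649 ± 83.7 CPM, without overlap, and to 30.1 ± 0.787 and 18.97 ± 1.89 CPM without H1f0, so the direction turned. Most of this fall lay in H2bc21, whose mean went from 19.4 to 9.57 CPM, so it does not describe the group as a whole. Among these 29, short annotated transcripts such as that of H2ac10 may stop before a stem-loop. Lack of a match therefore does not show lack of a stem-loop. Of the tested members, 1 of 3 that end at the stem-loop, 5 of 9 that run past it and 4 of 4 without a match passed the test, beside 57.4% of all genes tested.

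Other genes of histone supply were read in the same fit. The variants outside the classes above include forms made throughout the cell cycle from polyadenylated messages, such as H3.3. This does not hold for every listed variant, and the timing and tail of each were not examined. Of 9 listed variants 8 were tested, and 7 rose and 1 fell, with a median log2 fold change of 0.57. Over all genes tested 28.8% were higher and 28.6% lower. H2az1, which replaces H2A at promoters, rose from 5720, 5973 and 6611 counts to 13100, 13455 and 13369 (log2 fold change 0.98, edgeR adjusted p = 1.67e-09). H2ax, the form phosphorylated at DNA breaks, rose by 0.83 on the log2 scale, H2az2 by 0.64, and the H3.3 genes H3f3a and H3f3b by 0.60 and 0.32. Cenpa, the centromeric H3, rose by 0.25 (edgeR adjusted p = 0.00107), and H2aj fell by 0.49 on the log2 scale. For Cenpa the call was lost in limma fits of log2(FPKM + 1) (adjusted p = 0.0651) and log2(FPKM + 0.1) (adjusted p = 0.0635).

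Among 16 genes for the transcription, 3′ processing and decay of histone messages, 8 rose, 4 fell and 4 did not pass, with a median of 0.13, beside 28.8% higher and 28.6% lower over all genes tested. Slbp, the stem-loop binding protein, had 927, 1092 and 1121 counts in shNC and 1745, 1739 and 2017 in shTrem2 (log2 fold change 0.67, edgeR adjusted p = 9.65e-07). Casp8ap2 and Npat, which act at histone locus bodies, rose by 0.74 and 0.31 on the log2 scale. Hinfp, a transcription factor of H4 genes, fell by 0.39, and Lsm11, a subunit of the U7 snRNP that cuts histone messages, fell by 0.59, both on the log2 scale. The value of Lsm11 was -0.04 (limma adjusted p = 0.834) when FPKM was fitted as log2(FPKM + 1).

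Of 20 histone chaperone and import genes 14 rose, 1 fell and 5 did not pass, with a median of 0.46. Asf1b, a chaperone of H3 and H4 in proliferating cells, rose from 815, 828 and 918 counts to 1735, 1583 and 1850 (log2 fold change 0.87, edgeR adjusted p = 1.21e-07). Chaf1a, the large subunit of CAF-1, rose by 0.78 on the log2 scale, Nasp by 0.79, Hat1, which acetylates new H4, by 0.81 and Ssrp1 of FACT by 0.81. Of 16 S phase genes 14 rose and none fell, with a median of 0.88. The largest values were 1.38 for Tyms, 1.16 for Mcm5, 1.10 for Mcm7 and 1.08 for Ccne2, each with no overlap between groups. Over all genes tested 28.8% were higher.

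Of 13 RNAs made without a poly(A) tail, 3 passed the filter and none passed the test at an FDR of 0.05 in edgeR, with none at an unadjusted p under 0.05 and no count of calls in DESeq2 or limma-voom. Rn7sk had 37, 40 and 36 counts in shNC and 34, 40 and 28 in shTrem2 (log2 fold change -0.29, SE 0.254, edgeR adjusted p = 0.349), and it passed in the limma fits of log2(FPKM + 1) and log2(FPKM + 0.1) (adjusted p = 0.0256 and 0.0247). Rn7s1 and Rn7s2 had identical counts, 12 to 20 in shNC and 12 to 19 in shTrem2, so their reads were divided evenly and count as 1 measurement.

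**Figure D5:**
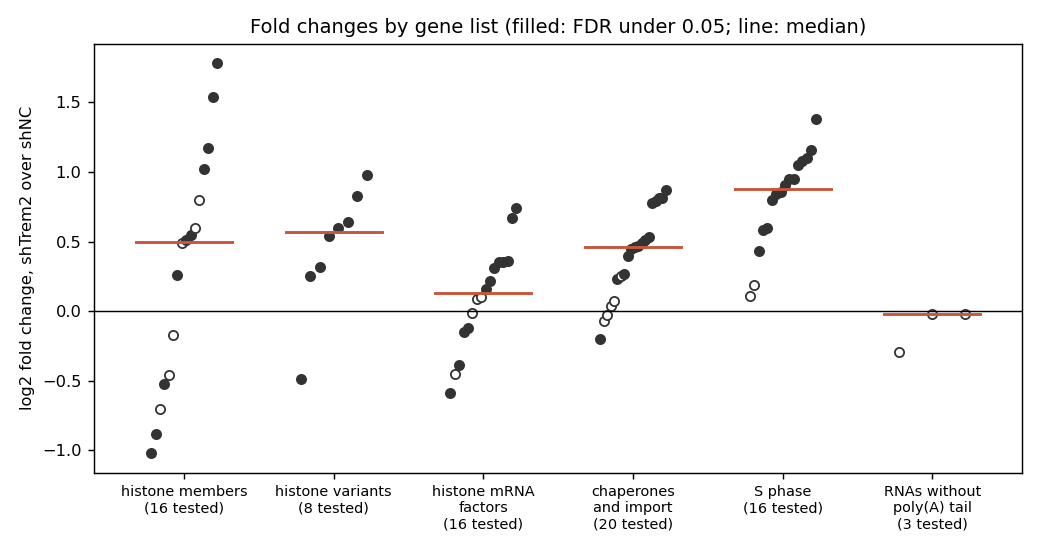
Log2 fold change of shTrem2 over shNC for each tested gene of the histone classes and of 5 lists, filled where the FDR is under 0.05, with the median as a line. S phase genes lie highest (median 0.88). The histone genes range from -1.02 to 1.78. Their highest values, of H2bc8 and H2ac10, rest on under 10 counts in every shNC library, and both genes passed the filter through shTrem2 alone.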

How the data were processed

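Poly(A)-selected RNA of the RAW264.7 lines was sequenced in 3 shNC and 3 shTrem2 libraries, grouped by their labels. The authors' pipeline was fastp for trimming, orientation-aware HISAT2 for alignment and StringTie for transcript assembly. The submitters' notes name build GRCm39. The counting tool was not given in the sources used here. The authors deposited estimated counts per transcript (79.3% of values above 0 were fractional) and FPKM per gene, a unit read from the values. No deposited fold changes or p-values were used.

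Estimated counts were summed per symbol and rounded. Transcripts without a symbol (0.908% to 1.12% of counts) were left out. Genes were filtered with filterByExpr and tested with edgeR 4.0.16 in R 4.3.3 (TMM, glmQLFit, glmQLFTest, no covariates, FDR under 0.05, fold change over 1.5). The script was tested on simulated data. DESeq2 1.42.0 and limma 3.58.1 (voom, and log2(FPKM + 1) or log2(FPKM + 0.1)) were alternatives, beside other normalizations, filters and thresholds and each library left out. The range of depth is given in the report. Libraries of a group differed by more than sampling noise.

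Sequences came from RefSeq and GENCODE M21 (GRCm38), with no coordinates converted. Sharing is the share of a transcript's 100-base stretches found in other genes. Amino acid sequences were not analysed here. In each class every tested member was named, and members under the filter where a library reached 10 counts. In each list the 4 largest changes past the FDR were named, besides Slbp, Npat, Asf1b, Chaf1a, Nasp, H2ax, H2az1, H3f3a, H3f3b and Cenpa. H2ac12, H2bc7, H3c15, H4c12, H2aj, Rn7sk, Rn7s1, Rn7s2 and members at 0 were named after their values were seen. The members and lists were chosen with earlier results of these data known.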

Additional observations from a re-analysis of the deposited data

How the results depend on the processing

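Few counts limit these results: 57 of 73 members could not be tested and 5 of the 16 tested had under 10 counts in a library. H1f0 and H2bc21 passed the test under every alternative tried. H2bc8, which passed the filter through shTrem2 alone, could not be tested where 10 counts were required in every library. The 5 tested members under 10 counts drop out when 10 counts are required in every library, which removes genes low in 1 group by construction. For other changes the cause was not tested.

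The numbers of members higher and lower were 7 and 3. They were 13 and 6 with no filter beyond 1 count and 3 and 1 at an FDR of 0.01, and 3 and 4 with at least 10 counts in every library. The numbers with a fold over 1.5 were 4 higher and 2 lower. They became 10 and 5 with no filter beyond 1 count, 2 and 1 at an FDR of 0.01, and 1 and 1 with glmTreat against 1.5-fold. None was higher (0) with at least 10 counts in every library. With DESeq2, with limma on log2(FPKM + 1) and with a fold over 2, 1 was lower. The median of the tested members was 0.50, against -0.17 with at least 10 counts in every library and 0.27 on log2(FPKM + 1).

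Leaving out each library gave 5 to 8 members higher and 2 to 5 lower, 4 to 7 higher and 2 to 4 lower by over 1.5-fold, and a median of 0.30 to 0.62. Among the genes for histone messages, the number lower was 2 to 4 when a library was left out.

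Over all genes 2951 passed with a fold over 1.5, against 1339 at a fold over 2 and 1515 with glmTreat. Of the genes for histone messages 4 were lower, against 2 at an FDR of 0.01 and 2 in either FPKM fit. Of the chaperones 1 was lower, against 2 with library size only. Of the RNAs without a tail none was lower, against 1 in either FPKM fit. Class sums in log2 ratio moved by more than the spread between replicates on leaving out the most counted member, from 0.53 to 0.30 in H1 without H1f0 (0.27 also without H1f10), from -0.71 to -0.31 in H2B without H2bc21 and from 0.63 to 1.32 in H3 without H3c14. Moves within that spread were those of H2A, from 0.31 to 0.18 without H2ac25 or without shNC replicate 1, and of H4, from 0.37 to 0.18 without H4c9 and to 0.25 without shNC replicate 2. Values that changed sign were those of H1f4 (-0.43 to 0.01 over the libraries left out, the latter without shNC replicate 1) and of Rn7s1 and Rn7s2 (-0.14 to 0.21, above 0 at 0.21 without shNC replicate 3 and at 0.16 without shTrem2 replicate 3).

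Replicate numbers did not pair the libraries: deviations of same-numbered libraries correlated at 0.006, -0.004 and 0.007. With the replicate number as a block 6 members were higher and 2 lower, 1 of them by over 1.5-fold, and H2ac25 and H3c14 no longer passed (edgeR adjusted p = 0.0718 and 0.0544).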
